A study of Mus musculus with 6 samples.

Results

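The genes described here are those that load ubiquitin onto target proteins and those that take it off again, in cultured mouse female germline stem cells (FGSC) and in cells induced from them to differentiate (Dif-FGSC). They were chosen by symbol alone, as the rows of the deposited table whose names begin with Ube2 and a letter, Usp and a digit, Uchl and a digit, Otud or Otub, leaving out Usp18 and Usp29. The rule took 107 of 24672 genes, of which 38 were Ube2, 54 Usp, 5 Uchl and 10 Otub or Otud symbols. Not all of these symbols name such an enzyme. For example, Usp6nl encodes a GTPase-activating protein of Rab proteins, Uchl1os is an antisense transcript and Ube2d-ps a pseudogene.

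Ubiquitin is a small protein that cells attach to other proteins to send them to the proteasome or to change their place or partners. An activating enzyme (E1) charges it, a conjugating enzyme (E2, the Ube2 genes) carries it, and a ligase (E3) picks the target. Deubiquitinases (DUBs) cut it off, and the USP, UCH and OTU families are 3 of their classes. Some conjugating enzymes carry relatives of ubiquitin instead, namely SUMO, NEDD8 or ISG15. In germ cells the best known member is Uchl1, a marker of spermatogonial stem cells.

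Poly(A) RNA was sequenced from 3 libraries of FGSC and 3 of Dif-FGSC, all from C57BL/6 cells above passage 20. The FGSC medium held serum, and inactivated STO fibroblasts served as feeders, with LIF, EGF, bFGF and GDNF, at 10, 20, 10 and 10 ng/mL. Dif-FGSC were freed of these feeders and plated on inactivated granulosa cells with retinoic acid at 0.1 µmol/L and with BMP4 and bFGF at 10 ng/mL each, so feeder cells, growth factors and retinoic acid changed together and their parts cannot be told apart. Nothing in the labels states whether replicate libraries stem from independent cultures, and the p-values therefore reflect library spread alone, technical spread included. The deposited columns carry the prefixes con and dif, and con was read as the control, FGSC, on which every direction rests.

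The labels were checked against marker genes. None of 18 germ cell markers reached a mean of 1 FPKM (fragments per kilobase of transcript scaled to the mapped fragments of the library), 13 stayed under 0.1 FPKM in every library, and Dazl, Sycp3 and Dmc1 were listed at 0 throughout. The summed level of that list was 0.842 to 1.23 FPKM in FGSC and 0.932 to 1.36 in Dif-FGSC. Fibroblast markers of the feeder cells summed to 0.98 to 1.06 and 0.531 to 0.654 FPKM over 14 genes, with Col3a1 and Lum at 0, and granulosa cell markers to 0.458 to 0.625 and 0.331 to 0.489 FPKM over 11 genes, with Foxl2 and Fshr at 0. Of 18 blood and mast cell markers, 9 were tested, 6 rose and 1 fell, and the list summed to 772 to 830 FPKM in FGSC and 1010 to 1013 in Dif-FGSC, a difference whose part in the results below was not tested. The names FGSC and Dif-FGSC are therefore used below as library labels. In bulk RNA, fewer cells of a type and less RNA per cell cannot be told apart. Low values implied 17.4 to 27.3 M fragments a library, and across genes the libraries correlated at 0.9936 to 0.9963 within groups and 0.9625 to 0.968 between them.

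A limit on levels came from the number format of the table. Cufflinks, which the processing notes name, writes 6 significant digits, and genes with 1 curated RefSeq transcript had more digits in 0.201% of their 28380 values. For genes with 3 curated transcripts the share was 61.1%, and 54.7% of their 6090 values ended in a recurring 3 or 6. A whole-number divisor that turns a gene's values into numbers of 6 digits equalled the number of curated transcripts in 37.2%, 36.3% and 21.3% of genes with 2, 3 and 4 of them, and was 1 in 25.7%, 10.6% and 9.11%. Among members, Usp14 and Ube2h, each with 3 curated transcripts, had a divisor of 3, while Ube2b, with 3, and Otud3, with 4, had a divisor of 1. For part of the genes the values may thus be means over transcripts, which the sources used here do not state. Such a mean leaves ratios within a gene as they are and lowers the level of genes with many transcripts, so levels are compared between genes only where 1 transcript is curated.

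**Figure D1:**
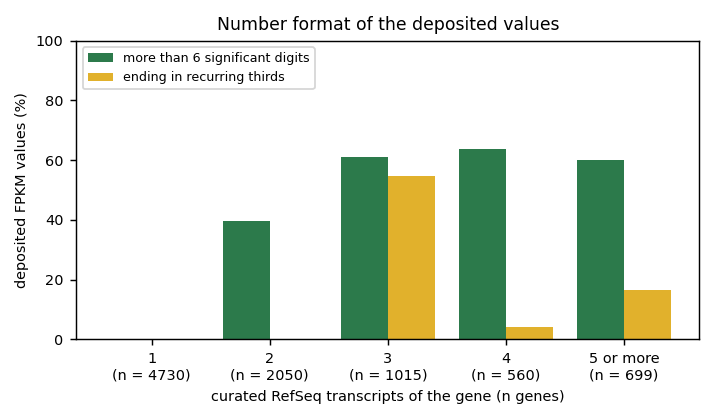
Number format of the deposited values. Bars give the share of deposited FPKM values (%, vertical axis) that have more than 6 significant digits or end in a recurring 3 or 6, by the number of curated RefSeq transcripts of the gene (horizontal axis), over genes with a mean of at least 1 FPKM and no value of 0. The share with more than 6 digits is 0.201% for genes with 1 transcript and 61.1% for genes with 3.

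A mean of at least 1 FPKM over the 6 libraries, the limit for testing, was reached by 82 of the 107 members: 32 Ube2, 40 Usp, 3 Uchl and 7 Otub or Otud genes. Of the other 25, 19 were listed at 0 in every library. Among these were Usp13, Usp16, Usp43, Usp44, Usp50, Usp51, Usp9y, Otud1, Otud7a, Ube2u and Ube2ql1, and copies such as Ube2d2b and Usp17la. A value of 0 can be a failed estimate in a table without counts. For Usp16, a deubiquitinase of histone H2A in dividing cells, 3 fragments in the shallowest library would have given 0.0483 FPKM. The other 6 untested members had a value above 0 somewhere. Uchl1 was listed at 0.0501 FPKM in FGSC library 3 and at 0 in the other 5, below the 0.147 FPKM that 3 fragments would have given. Usp2, a deubiquitinase of cyclin D1 and clock proteins, was the highest of the untested members, at 0.522, 0.429 and 0.558 FPKM in FGSC and 0.357, 0.336 and 0.229 in Dif-FGSC.

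Of the 82 tested members, 42 were higher and 19 lower in Dif-FGSC and 21 were not called (limma on log2(FPKM + 1), Benjamini-Hochberg adjusted p under 0.05 over all 9162 genes tested). Fold changes named as times are ratios of mean FPKM, while log2 differences are taken of FPKM + 1, so that they come out smaller for genes with low values. Values of a gene are given for FGSC replicates 1, 2 and 3 first, against those of Dif-FGSC. Among all genes tested, 36.5% were called higher and 28.6% lower, against 51.2% and 23.2% of the members. The groups did not overlap in 67 of the 82 members (81.7%), where the share over all genes was 70.7%. Most differences were small. Those of at least 1.5-fold in FPKM + 1 were 7 rises and 1 fall, or 8.54% and 1.22% of the members, beside 6.88% and 2.93% of all genes. The rises of Usp49 and Ube2h and the falls of Ube2v2 and Usp27x passed the limit for testing only through the group where the gene is high, and these 4 lend no support to the counts. Of the 78 members with a mean of at least 1 FPKM in both groups, 40 rose and 17 fell, 5 and 1 of them by at least 1.5-fold. Those are 51.3% and 21.8% of the 78, and 6.41% and 1.28% for changes of at least 1.5-fold. Over the 8884 genes that met the same limit, the shares were 36.1% and 28.5%, and 6.045% and 2.488%. The median log2 difference, Dif-FGSC minus FGSC, was 0.13 over the tested members and 0.03 over all genes.

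Of 32 tested Ube2 symbols, not all of which need name a conjugating enzyme, 11 rose, 9 fell and 12 were not called. Their median log2 difference was 0.05. Of 50 symbols of the deubiquitinase families, 31 rose, 10 fell and 9 were not called, with a median of 0.18. The difference between the 2 kinds was not tested. Summed over the Ube2 symbols, the deposited values gave 1180, 1153 and 1089 FPKM in FGSC and 1183, 1193 and 1179 in Dif-FGSC. Over the deubiquitinase symbols the sums were 855, 836 and 850 FPKM in FGSC and 901, 897 and 906 in Dif-FGSC. The sums of the deubiquitinase symbols did not overlap between the groups, and those of the Ube2 symbols overlapped.

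**Figure D2:**
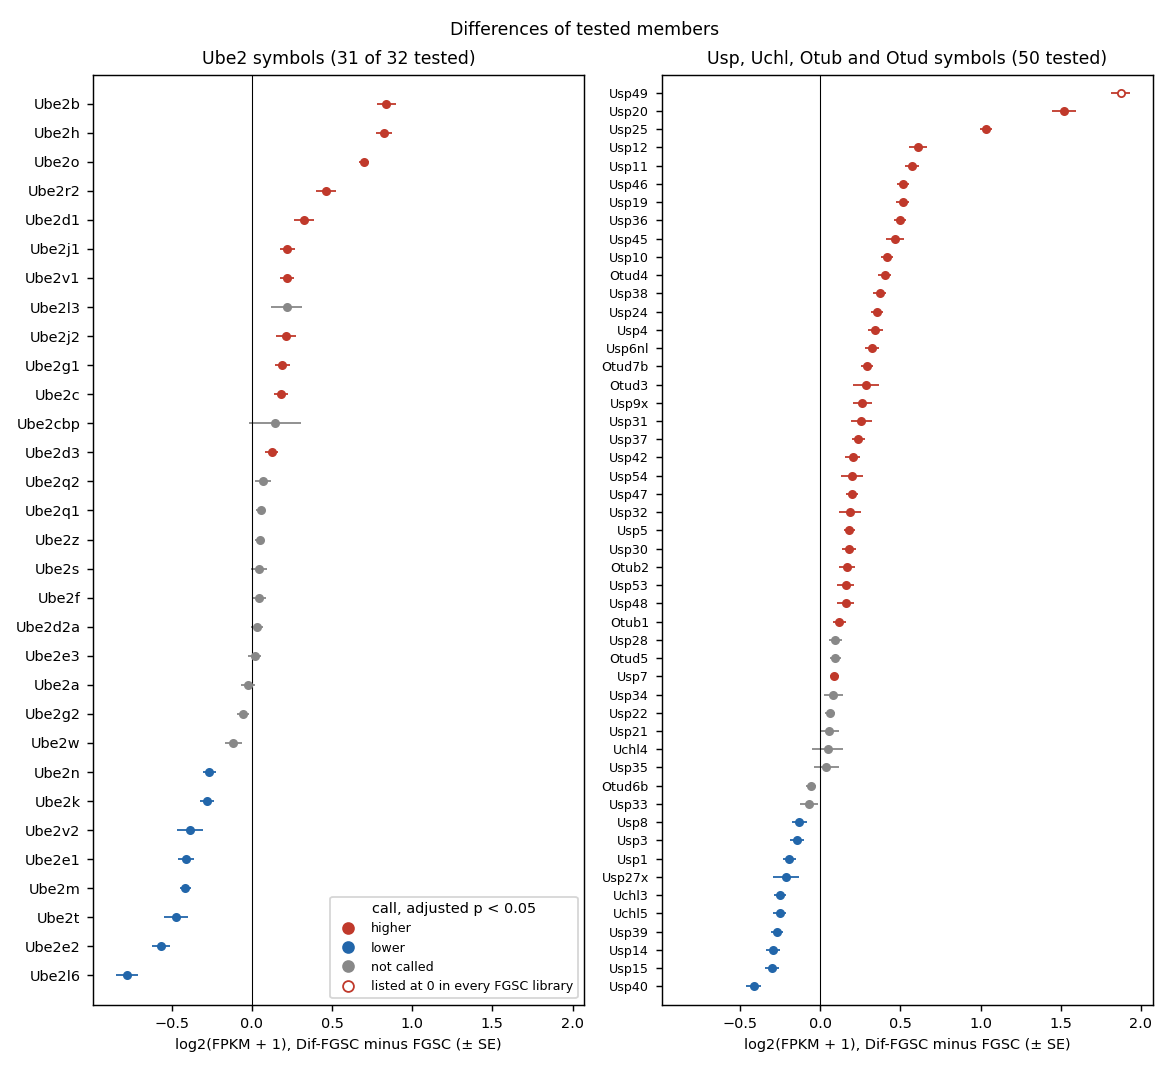
Differences of tested members. Points give the log2(FPKM + 1) difference of Dif-FGSC minus FGSC with its standard error (horizontal axis) for 31 of the 32 tested Ube2 symbols (left) and 50 symbols of the deubiquitinase families (right), coloured by call, with Usp49 open because it was listed at 0 in FGSC. More points lie right of 0 in the right panel, with 31 rises and 10 falls, than in the left, with 11 and 9 over all 32.

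Transcript length moved with these counts. The longest reference transcript had a median of 3350 bp for the tested Ube2 symbols, 4732 bp for the deubiquitinase symbols and 3346 bp for all genes tested. Over all genes, 19.8% of those under 2000 bp and 58.3% of those of 6000 bp or more were called higher, while 41.8% and 14.8% were called lower. The members followed the same order, with 3 of 9 called higher under 2000 bp, 12 of 29 from 2000 to under 4000 bp, 14 of 28 from 4000 to under 6000 bp and 13 of 16 at 6000 bp or more. With a smooth trend on length taken out of every library, an analysis added after the data were seen, 19 in place of 31 deubiquitinase symbols were called higher, and 13 in place of 10 were called lower. The counts of Ube2 symbols were 10 higher and 11 lower, and those of all genes 2922 higher and 2895 lower. Over all members the calls became 29 higher and 24 lower and the median log2 difference 0.03. What the length trend comes from was not tested.

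**Figure D3:**
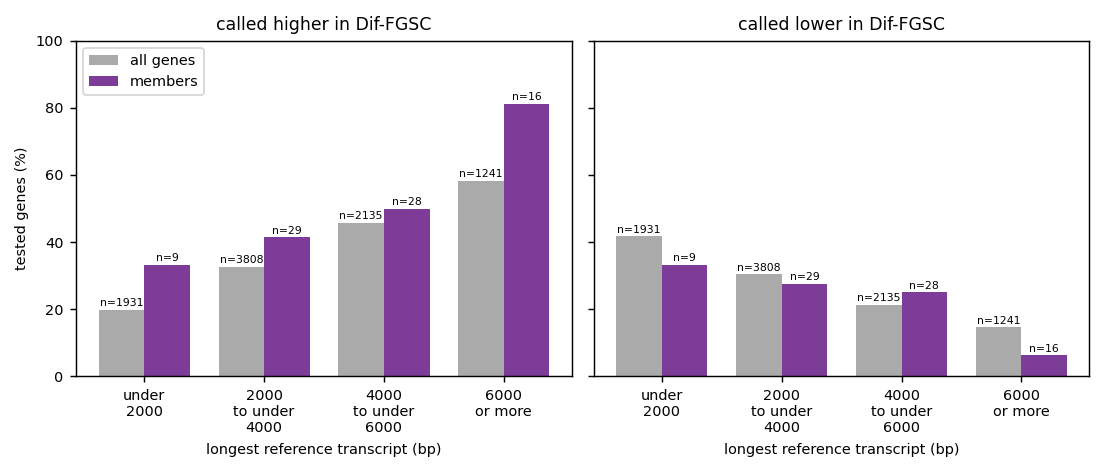
Calls by transcript length. Bars give the share of tested genes (%, vertical axis) called higher (left) or lower (right) in Dif-FGSC, by length of the longest reference transcript in bp (horizontal axis), for all genes and for members, with the number of genes above each bar. The share called higher climbs from 19.8% to 58.3% of all genes from the shortest to the longest class.

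The largest rises among the deubiquitinases with values above 0 in every library were those of Usp20 and Usp25. Usp20, whose protein binds the von Hippel-Lindau ligase and stabilises a sterol synthesis enzyme, stood at 2.44, 2.02 and 2.67 FPKM in FGSC and 9.16, 8.38 and 8.45 in Dif-FGSC, 3.65 times higher (log2 difference 1.52 ± 0.075 SE, limma adjusted p = 3.28e-06). All 3 Dif-FGSC libraries were above every FGSC library by a wide margin. Usp25, which acts on clients of endoplasmic reticulum degradation and in immune signalling, was measured at 10.1, 10.2 and 10.2 FPKM and 21.0, 22.6 and 22 FPKM, a rise of 2.15 times (log2 difference 1.03 ± 0.037 SE, limma adjusted p = 8.35e-07). The FGSC libraries lay close together and far below those of Dif-FGSC. Usp49, a deubiquitinase of histone H2B, was listed at 0 in every FGSC library and at 2.58, 2.54 and 2.89 FPKM in Dif-FGSC, and no fold is given. The same table lists Hspa8 and Cbx1, which nearly all cells use, at 0 in FGSC and at means of 1474 and 70.3 FPKM in Dif-FGSC, so that a 0 in FGSC can be a failed estimate and the Usp49 difference is given as listed. In the reference annotation 52.3% of its exon bases are shared with the read-through gene Gm20517 on the same strand and with Tomm6 on the other strand, so its value is uncertain on that ground too. Tomm6 itself stood at 56.2, 56.2 and 57.6 FPKM in FGSC and at 42.4, 44.9 and 44.1 in Dif-FGSC.

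Usp12 and Usp46 are close paralogues whose proteins are switched on by the cofactors Wdr48 and Wdr20. Usp12 stood at 19.3, 19.0 and 22 FPKM in FGSC and 30.5, 32.3 and 30.7 in Dif-FGSC (1.55 times, limma adjusted p = 6.54e-05). For Usp46 the values were 19.6, 18.1 and 18.9 against 27.2, 27.6 and 27.5 FPKM (1.45 times, limma adjusted p = 1.48e-05). Neither gene's groups overlapped, as in 70.7% of all genes tested. The cofactors went the other way: Wdr20 fell from 7.84, 8.48 and 8.10 FPKM to 5.61, 5.80 and 5.48 (limma adjusted p = 6.01e-05) and Wdr48 was at 0.908 times its FGSC level (limma adjusted p = 0.00888).

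**Figure D4:**
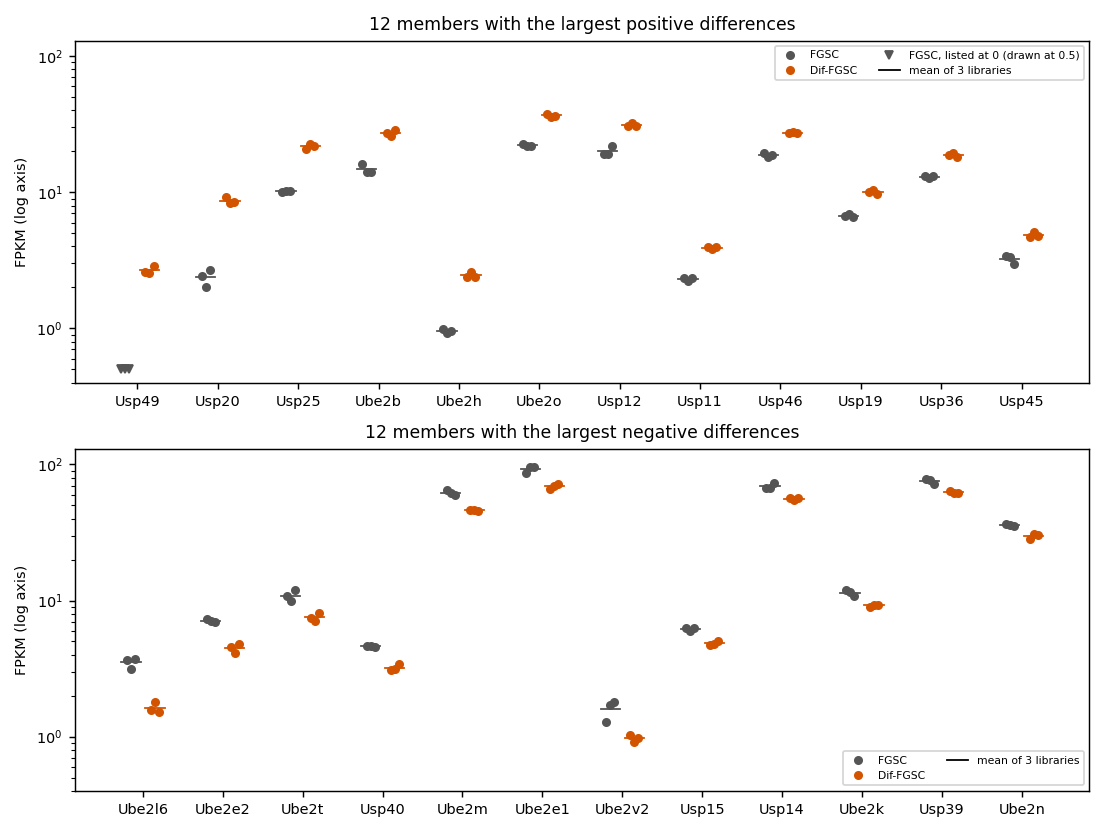
Levels of the members with the largest called differences. Points are single libraries and short lines means of 3 libraries, as FPKM on a log axis, for the 12 largest rises (top) and the 12 largest falls (bottom). Usp20 lies at 2.02 to 2.67 against 8.38 to 9.16 FPKM, and Usp49 was listed at 0 in FGSC, drawn as triangles. No groups overlap among the 24 genes, which were chosen by these same differences, so this lends no support. Over all genes tested the share without overlap is 70.7%. Usp49, Ube2h and Ube2v2 passed the limit for testing only through the group where they are high.

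On the log2 scale, Ube2b, Ube2h and Ube2o had the largest rises among conjugating enzymes. Ube2b, one of the RAD6 enzymes that mark histone H2B and the replication clamp, stood at 16.1, 14.2 and 14.2 FPKM in FGSC and 27.3, 26.0 and 28.5 in Dif-FGSC, 1.84 times higher (log2 difference 0.84 ± 0.058 SE, limma adjusted p = 1.49e-05). Its paralogue Ube2a stood at 21.6, 19.6 and 21.4 against 20.1, 20.8 and 20.5 FPKM, with overlapping groups and no call (limma adjusted p = 0.639), although it was called lower after quantile normalization (adjusted p = 0.042, and 0.042 to 0.991 over all alternatives). Ube2h is the partner of the CTLH ligase and a gene of maturing red cells. It stood at 0.987, 0.925 and 0.950 FPKM in FGSC and 2.39, 2.58 and 2.40 in Dif-FGSC. The mean was 2.58 times higher (log2 difference 0.82 ± 0.05 SE, limma adjusted p = 8.18e-06). Ube2h passed the limit for testing only through its Dif-FGSC values, so its call is given as listed and not as support. Words of 50 bases from its longest transcript occur in other annotated genes, such as the predicted gene Gm26526, for 46.3% of positions, so part of its signal may be divided among rows. Ube2o, a large enzyme that joins E2 and E3 activity and clears ribosomal proteins in maturing red cells, stood at 22.8, 22 and 21.9 against 37.7, 36.0 and 36.7 FPKM, 1.65 times higher (limma adjusted p = 2.34e-06). The blood factor Gata1 also rose between these libraries, from 1.65, 1.70 and 1.96 to 3.72, 3.75 and 3.66 FPKM, and whether it has a part in the rises of Ube2h and Ube2o was not tested.

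The enzymes of the anaphase-promoting complex, the ligase that drives cells out of mitosis, were the most abundant conjugating enzymes among those with 1 curated transcript. Ube2c starts ubiquitin chains for this complex and Ube2s lengthens them. Ube2c stood at 245, 229 and 218 FPKM in FGSC and 258, 267 and 258 in Dif-FGSC (1.13 times, limma adjusted p = 0.007), with groups that did not overlap. In the reference annotation 22.8% of the exon bases of Ube2c lie opposite Tnnc2, and whether counting used strand is not given in the sources used here. Ube2s stood at 232, 237 and 207 against 239, 232 and 225 FPKM, and its groups overlapped (limma adjusted p = 0.473). After quantile normalization it was called higher (adjusted p = 0.0194, and 0.0194 to 0.902 over all alternatives). The pair made up 39.9% ± 0.796 (SD, n = 3) of the summed Ube2 values in FGSC and 41.6% ± 0.533 (SD, n = 3) in Dif-FGSC. Of 17 tested subunits and regulators of the complex, 2 rose, 7 fell and 8 were not called, and the largest falls were those of its inhibitor Fbxo5, from 40.5, 36.7 and 38.3 to 25.1, 24.9 and 25.0 FPKM, and of the subunit Cdc23, from 33.9, 33.8 and 35.1 to 20.4, 27.1 and 26.7. Proliferation markers moved in both directions, with 4 of 15 higher and 8 lower. Mki67 fell from 54.6, 51.1 and 67.1 to 25.5, 25.0 and 25.6 FPKM, while Foxm1, a transcription factor of mitotic genes, rose from 20.1, 20.3 and 21.0 to 28.5, 28.5 and 28.3. Their part in the values of Ube2c was not tested.

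The promoters of 3 conjugating enzymes, Ube2c, Ube2t and Ube2b, are shown for the elements they carry. Ube2c and Ube2t are both transcribed mainly in dividing cells and here differed in direction. Ube2b had the largest log2 difference of FPKM + 1 among the conjugating enzymes. By the ratio of means, Ube2h rose more, 2.58 against 1.84 times. Each sequence holds the 250 bases before a RefSeq start in build GRCm38.p6, which is not the build of the deposited table. Capitals mark CCAAT boxes (CCAAT), the cell cycle homology region (TTTGAA) or E-boxes (CACGTG), each searched on both strands. The windows are chr2:164769679-164769928 (+) for Ube2c, chr1:134962315-134962564 (+) for Ube2t and chr11:52000787-52001036 (-) for Ube2b, the last being the RefSeq start with more matches of the 2 listed.
Ube2c: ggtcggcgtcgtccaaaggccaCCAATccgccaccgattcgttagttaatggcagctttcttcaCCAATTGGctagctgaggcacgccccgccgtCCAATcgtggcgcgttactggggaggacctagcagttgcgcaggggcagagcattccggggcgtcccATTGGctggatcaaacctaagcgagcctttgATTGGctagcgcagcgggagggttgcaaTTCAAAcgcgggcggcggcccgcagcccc
Ube2t: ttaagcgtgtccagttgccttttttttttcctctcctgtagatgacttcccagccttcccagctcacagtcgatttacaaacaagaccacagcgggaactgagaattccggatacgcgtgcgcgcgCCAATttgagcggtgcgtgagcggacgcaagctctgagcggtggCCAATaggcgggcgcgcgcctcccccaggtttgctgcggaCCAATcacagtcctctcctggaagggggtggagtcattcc
Ube2b: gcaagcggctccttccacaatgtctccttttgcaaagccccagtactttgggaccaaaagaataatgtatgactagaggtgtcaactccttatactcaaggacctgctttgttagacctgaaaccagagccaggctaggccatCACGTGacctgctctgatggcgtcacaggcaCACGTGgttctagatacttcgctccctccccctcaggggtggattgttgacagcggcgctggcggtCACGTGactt
The Ube2c window held 6 CCAAT boxes, with 1 overlapping pair among them, and 1 cell cycle homology region at position -29 from the start. The Ube2t window held 3 CCAAT boxes and none of the other elements, and that of Ube2b 3 E-boxes. At least 1 CCAAT box was found in 33.8% of 32851 promoters of this length, the homology region in 16.0% and an E-box in 6.02%. Of the 64 tested members with a promoter in the reference, 14 held a CCAAT box, 5 the homology region and 6 an E-box, or 21.9%, 7.81% and 9.38% of them. Counted per gene in the same way, the shares over 27025 genes were 37.5%, 18.3% and 6.86%.

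Conjugating enzymes of DNA damage tolerance went both ways. Ube2n, which builds the chains used in signalling and damage bypass, fell from 36.8, 35.8 and 35.0 FPKM in FGSC to 28.4, 30.6 and 30.2 in Dif-FGSC (0.828 times, limma adjusted p = 0.000569). Its partners Ube2v1 and Ube2v2 look like E2 enzymes but lack the catalytic cysteine. Ube2v2 fell from 1.29, 1.70 and 1.78 to 1.03, 0.918 and 0.982 FPKM (limma adjusted p = 0.00428). It passed the limit for testing only through its FGSC values, so its call is given as listed and not as support. Ube2v1 rose from 12.2, 11.6 and 10.9 to 13.8, 13.7 and 13.3 FPKM (limma adjusted p = 0.0033). The Ube2v1 row is uncertain, because 69.1% of its exon bases are shared with other annotated genes, mostly the read-through gene Gm20431. Ube2t, the enzyme of the Fanconi anaemia repair pathway, fell from 10.8, 9.85 and 12 to 7.50, 7.02 and 8.11 FPKM (log2 difference -0.47 ± 0.074 SE, limma adjusted p = 0.000894). Usp1, the deubiquitinase that reverses the Fanconi mark, fell as well, from 27.4, 26.5 and 28.6 to 23.8, 23.3 and 24.6 FPKM (0.871 times, limma adjusted p = 0.00331). For both genes every Dif-FGSC library was below every FGSC library, where 70.7% of all genes tested had groups without overlap in either direction. Words of 50 bases from Usp1 also occur in the predicted gene Gm5841 for 22.9% of positions.

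Of the 4 conjugating enzymes for ubiquitin-like proteins, 3 fell. Ube2l6, the enzyme for the interferon-induced modifier ISG15, had the largest fall of all members, from 3.67, 3.16 and 3.73 FPKM in FGSC to 1.56, 1.80 and 1.53 in Dif-FGSC (0.463 times, log2 difference -0.78 ± 0.069 SE, limma adjusted p = 4.88e-05). Isg15 itself rose from 2.71, 1.81 and 1.90 to 3.16, 3.30 and 3.33 FPKM (limma adjusted p = 0.00568), and Uba7, the E1 that charges it, was below the limit for testing, with a mean under 1 FPKM. Ube2m, the main enzyme for NEDD8, the switch of cullin ligases, fell from 64.6, 61.3 and 59.3 to 46.2, 46.3 and 45.7 FPKM (0.746 times, limma adjusted p = 4.30e-05). The other NEDD8 enzyme, Ube2f, stood at 4.45, 4.62 and 4.78 against 4.87, 4.64 and 4.85 FPKM and was not called (limma adjusted p = 0.398). The NEDD8 activating subunits Uba3 and Nae1 fell to 0.666 and 0.837 times their FGSC level, and Nedd8 to 0.849 times. Uba2, a SUMO activating subunit, fell from 191, 196 and 192 to 158, 158 and 157 FPKM (limma adjusted p = 3.27e-05).

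Of 16 tested conjugating enzymes with broad roles in chain assembly, 6 rose, 3 fell and 7 were not called. Besides Ube2h and Ube2o, Ube2r2, which extends chains on targets of cullin ligases, rose from 26.4, 23.1 and 21.9 FPKM in FGSC to 33.6, 33 and 32.7 in Dif-FGSC (1.39 times, limma adjusted p = 0.000449). Ube2g1, also a partner of cullin ligases, rose from 19.9, 19.1 and 18 to 21.3, 22.7 and 21.5 FPKM, a call lost after quantile normalization (adjusted p = 0.0729, and 0.00575 to 0.0729 over all alternatives). The remaining rises were in the Ube2d family, whose proteins work with many ligases of the RING type. Ube2d1 rose from 8.34, 7.37 and 8.23 to 10.8, 9.47 and 10.6 FPKM (1.29 times, limma adjusted p = 0.0024). Ube2d3 stood at 17.2, 17.5 and 16.0 against 18.6, 18.2 and 18.7 FPKM (limma adjusted p = 0.0275), and its call was lost under 6 alternatives, leaving out any 1 Dif-FGSC library among them, with adjusted p up to 0.461. With the length trend taken out its log2 difference was -0.18, called lower. Ube2d2a stood at 59.0, 60.2 and 56.4 against 58.3, 61.8 and 59.6 FPKM and was not called, but with the length trend taken out its log2 difference was -0.18, called lower (adjusted p = 0.012, and 0.012 to 0.952 over all alternatives).

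In the Ube2e family 2 members fell and Ube2e3 was not called. Ube2e1 fell from 85.8, 95.1 and 96.0 FPKM in FGSC to 66.4, 70.0 and 71.3 in Dif-FGSC (0.750 times, limma adjusted p = 0.000236), with 16.1% of its exon bases opposite Nkiras1, and Ube2e2 from 7.37, 7.02 and 6.93 to 4.57, 4.10 and 4.76 (0.630 times, limma adjusted p = 7.60e-05). Ube2e3 stood at 8.39, 7.99 and 7.87 against 8.33, 8.32 and 7.95 FPKM. The remaining fall among the broad enzymes was that of Ube2k, which builds chains that lead to the proteasome, from 11.9, 11.5 and 10.8 to 8.97, 9.33 and 9.30 FPKM (0.808 times, limma adjusted p = 0.00081). Ube2l3, a partner of HECT and RBR ligases, spread widely among FGSC libraries, at 94.3, 82.3 and 69.2 FPKM against 92.5, 95.2 and 96.3 in Dif-FGSC, and was not called (limma adjusted p = 0.0828). Without FGSC replicate 1 it was called higher (adjusted p = 0.00713, and 0.00713 to 0.179 over all alternatives), as it was after quantile normalization. Its exons share 28.6% of their bases with Ydjc on the other strand. Words of 50 bases from its longest transcript occur in Ydjc and other annotated genes for 58.9% of positions, so the Ube2l3 row is uncertain.

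Another 4 broad enzymes were not called. Ube2q1 stood at 47.6, 48.4 and 47.5 FPKM in FGSC and 48.9, 49.9 and 50.6 in Dif-FGSC, and Ube2q2 at 9.51, 8.58 and 8.44 against 9.45, 9.06 and 9.43. Ube2z, which receives ubiquitin from the alternative activating enzyme Uba6, stood at 31.6, 31.1 and 31.4 against 32.3, 32.9 and 32.2 FPKM. Ube2w, which modifies the first residue of proteins, stood at 3.17, 3.24 and 2.97 against 2.88, 2.60 and 2.95 FPKM. Ube2w was called lower after quantile normalization (adjusted p = 0.0237, and 0.0237 to 0.282 over all alternatives) and Ube2q2 higher without FGSC replicate 1 (adjusted p = 0.0488, and 0.0488 to 0.78). Among the enzymes of endoplasmic reticulum degradation, Ube2j1 rose from 13.5, 15.1 and 13.7 to 17.2, 16.2 and 16.4 FPKM (limma adjusted p = 0.00423) and Ube2j2 from 1.60, 1.89 and 1.69 to 2.30, 2.19 and 1.99 (limma adjusted p = 0.0189), while Ube2g2 stood at 35.9, 38.2 and 37.2 against 36.5, 36.0 and 34.4 and was not called. The call of Ube2j2 was lost under 4 alternatives, leaving out FGSC replicate 1 or Dif-FGSC replicate 1 or 2 among them, with adjusted p up to 0.0857.

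The deubiquitinases bound to the proteasome fell. Usp14 fell from 66.8, 66.6 and 73.7 FPKM in FGSC to 56.2, 55.0 and 56.8 in Dif-FGSC (0.812 times, limma adjusted p = 0.000655) and Uchl5 from 66.9, 62.9 and 62.4 to 52.8, 52.3 and 55.8 (0.837 times, limma adjusted p = 0.0009). The third proteasomal deubiquitinase, the subunit Psmd14, which lies outside the symbol rule, fell from 147, 148 and 141 to 119.6, 120.5 and 127 FPKM (limma adjusted p = 0.000428). All 3 had groups that did not overlap, as did 70.7% of all genes tested, and Psmd14 was added after its values were seen. Of the exon bases of Usp14, 26.0% lie opposite Thoc1, so its value carries the same doubt as that of Ube2c. Usp5, which takes free chains apart, rose from 35.3, 36.9 and 35.2 to 40.4, 40.1 and 41.8 FPKM (1.14 times, limma adjusted p = 0.00189).

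Of 5 tested deubiquitinases of histones, Usp22 and Usp21 were not called and Usp3 was called lower. The calls of the other two, Usp49 and Usp27x, rest on a filter that they passed through 1 group alone. Usp22, the subunit of the SAGA coactivator, stood at 21.7, 21.8 and 21.2 FPKM in FGSC and 22.4, 22.7 and 22.5 in Dif-FGSC (limma adjusted p = 0.105), and Usp21 at 11.2, 11.8 and 11.5 against 13, 11.0 and 12.1 (limma adjusted p = 0.434), both without a call. Usp3, which acts on histone H2A, was lower, at 2.16, 2.16 and 2.23 against 1.87, 1.88 and 1.90 FPKM (limma adjusted p = 0.0222), a call lost without Dif-FGSC replicate 1 or 2 and with replicate number as a block, with adjusted p up to 0.0662. Usp27x, a relative of Usp22, stood at 0.926, 1.31 and 1.22 against 0.847, 0.928 and 0.777 FPKM with overlapping groups (limma adjusted p = 0.047), and its call was lost under 8 alternatives, leaving out any 1 library but FGSC replicate 1 among them, with adjusted p up to 0.14. The SAGA partner Atxn7l3, which activates Usp22, rose from 19.0, 18.5 and 19.0 to 24.1, 24.0 and 23.9 FPKM (limma adjusted p = 4.54e-05).

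Of 8 tested deubiquitinases of DNA repair, replication and the tumour suppressor Trp53, 6 rose, Usp1 fell and Usp28 was not called. Usp10, which binds the stress granule protein G3BP1 and stabilises Trp53, rose from 24.0, 23.6 and 22.5 FPKM in FGSC to 32.1, 30.8 and 31.6 in Dif-FGSC (1.35 times, limma adjusted p = 4.00e-05). Usp11, an X-linked gene of double-strand break repair, rose from 2.36, 2.22 and 2.34 to 3.96, 3.84 and 3.93 FPKM (1.70 times, limma adjusted p = 2.30e-05). These were the larger changes in the list.

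Usp7, which controls the Trp53 ligase Mdm2, stood at 49.8, 48.3 and 48.8 FPKM in FGSC and 51.6, 51.6 and 53 in Dif-FGSC (limma adjusted p = 0.0269), a difference of 1.06 times whose call was lost under 7 alternatives, leaving out FGSC replicate 2 or any 1 Dif-FGSC library among them. Usp47, which acts in base excision repair, stood at 7.41, 7.31 and 7.43 against 8.90, 8.56 and 8.37 FPKM (limma adjusted p = 0.0024), and Usp37, which stabilises cyclin A, at 4.71, 4.59 and 4.53 against 5.80, 5.57 and 5.48 (limma adjusted p = 0.00137). With the length trend taken out, none of these 3 was called (adjusted p = 0.632, 0.318 and 0.357), and over all alternatives their adjusted p ranged from 0.0188 to 0.632, from 0.00121 to 0.318 and from 0.00092 to 0.357. Usp28, a deubiquitinase of Myc, stood at 4.99, 4.84 and 4.90 against 5.40, 5.21 and 5.33 FPKM (limma adjusted p = 0.0573), and was called only by limma without a variance trend (adjusted p = 0.0336, and 0.0336 to 0.953 over all alternatives). Otub1, which blocks Ube2n, stood at 59.6, 55.6 and 53.4 against 60.2, 61.8 and 61.3 FPKM (limma adjusted p = 0.0378), and its call was lost under 10 of 15 alternatives, leaving out any 1 library but FGSC replicate 1 among them, with adjusted p up to 0.129.

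Of 5 tested deubiquitinases of membranes and organelles, 4 rose, Usp25 among them, and 1 fell. Usp19, which is anchored in the endoplasmic reticulum, rose from 6.71, 6.90 and 6.61 FPKM in FGSC to 10.0, 10.5 and 9.71 in Dif-FGSC (1.49 times, limma adjusted p = 2.79e-05). Usp30, which sits in the outer mitochondrial membrane and opposes mitophagy, stood at 10.5, 10.3 and 9.82 against 11.4, 12.3 and 11.5 FPKM (limma adjusted p = 0.00805), and its call was lost after quantile normalization and with the length trend taken out, with adjusted p up to 0.161. Usp32, a Golgi and endosome enzyme, stood at 5.0, 5.54 and 6.12 against 6.32, 6.19 and 6.83 FPKM (limma adjusted p = 0.0433), a call lost under 10 of 15 alternatives, leaving out any 1 library but FGSC replicate 3 among them, with adjusted p up to 0.978. Usp8, which spares receptors from lysosomal breakdown, was lower, at 13.5, 13.4 and 14.4 against 11.9, 12.8 and 12.9 FPKM (limma adjusted p = 0.04), a call lost under 6 alternatives, leaving out any 1 library but Dif-FGSC replicate 3 among them, with adjusted p up to 0.134.

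Among Usp genes outside these roles, Usp36, a nucleolar enzyme of ribosome production, rose from 13.3, 12.8 and 13.1 FPKM in FGSC to 18.9, 19.6 and 18.2 in Dif-FGSC (1.45 times, limma adjusted p = 1.96e-05). Usp45, an enzyme of nucleotide excision repair, rose from 3.40, 3.32 and 2.98 to 4.67, 5.14 and 4.76 FPKM (1.5 times, limma adjusted p = 0.000234). Another 3 fell. Usp40 fell from 4.65, 4.60 and 4.54 to 3.07, 3.12 and 3.40 FPKM (0.696 times, limma adjusted p = 0.000158). Usp15, a deubiquitinase of TGF-beta receptors and their Smad proteins, fell from 6.29, 6.02 and 6.31 to 4.70, 4.81 and 5.04 FPKM (0.782 times, limma adjusted p = 0.000514). Usp39, a splicing factor that has lost its protease activity, fell from 77.6, 76.6 and 71.6 to 63.4, 61.9 and 61.7 FPKM (0.828 times, limma adjusted p = 0.000436). In each of these 5 genes the groups did not overlap, as in 70.7% of all genes tested. All 5 were chosen by the size of these same differences, so this lends no support. A further 14 tested members had means of 1.06 to 22.4 FPKM, and 10 of them rose by 1.14 to 1.32 times, none fell and 4 were not called. These 14 include the very large enzymes Usp9x, Usp24 and Usp34, and 6 of the 10 rises (Usp9x, Usp31, Usp42, Usp48, Usp53 and Usp54) were not called with the length trend taken out. Of these, Usp48, Usp53 and Usp54 also lost their calls when FGSC replicate 1, FGSC replicate 2 or Dif-FGSC replicate 1 was left out, Usp48 and Usp54 without Dif-FGSC replicate 2, and Usp53 and Usp54 without Dif-FGSC replicate 3.

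Of 3 tested members of the UCH family, Uchl5 and Uchl3 fell. Uchl3, which also processes NEDD8, stood at 77.1, 71.4 and 76.0 FPKM in FGSC and 61.7, 61.3 and 65.2 in Dif-FGSC (0.838 times, limma adjusted p = 0.000947). Its near copy Uchl4 stood at 2.30, 2.63 and 2.57 against 2.28, 2.41 and 3.21 FPKM with overlapping groups, and 26.2% of the 50-base words of Uchl4 also occur in Uchl3, so the Uchl4 row is uncertain. Of 7 tested OTU genes, 5 rose and none fell. Otud4, which acts on innate signalling and alkylation repair, rose from 14.7, 14.0 and 13.6 to 19.4, 18.8 and 18.7 FPKM (1.34 times, limma adjusted p = 7.38e-05). Otud7b, which cuts the chains made by Ube2s, rose from 3.44, 3.35 and 3.41 to 4.33, 4.35 and 4.49 FPKM (limma adjusted p = 0.000446), a call lost with the length trend taken out (adjusted p = 0.123, and 0.000226 to 0.123 over all alternatives).

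The calls of Otud3 and Otub2 were lost after quantile normalization. Otud3 stood at 3.94, 4.16 and 4.30 FPKM in FGSC and 5.96, 5.37 and 4.56 in Dif-FGSC (limma adjusted p = 0.0152, and 0.0025 to 0.0527 over the alternatives). Otub2 stood at 3.44, 3.18 and 3.6 against 3.99, 3.90 and 3.96 FPKM (limma adjusted p = 0.0176, and 0.00918 to 0.164 over the alternatives), a call lost without FGSC replicate 2 or Dif-FGSC replicate 1. Otud5 and Otud6b were not called, at 6.91, 6.81 and 7.17 against 7.60, 7.40 and 7.53 FPKM and 50.7, 48.3 and 49.0 against 47.5, 46.9 and 47.7 FPKM, although the groups of neither gene overlapped. Otud5 was called higher under 4 alternatives, leaving out FGSC replicate 3 among them, with adjusted p from 0.0311 to 0.946 over all of them. Otud6b was called lower after median-ratio scaling and with the length trend taken out, with adjusted p from 0.0246 to 0.295.

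The rest of the ubiquitin pathway was read from 10 lists with 139 genes in the table. Of 123 tested, 45 rose, 36 fell and 42 were not called, with a median log2 difference of 0.03. These counts lie near the shares over all genes tested, 36.5% higher and 28.6% lower, where the median was also 0.03. The balance of rises and falls moved with the processing. After median-ratio scaling 43 rose and 42 fell, and after quantile normalization 41 and 41. With the length trend taken out, 33 rose and 46 fell. Ubb, a polyubiquitin gene, fell from 276, 273 and 254 FPKM in FGSC to 245, 239 and 245 in Dif-FGSC (limma adjusted p = 0.0103). Of the 13 tested genes of ubiquitin and its relatives, 9 fell and 2 rose. Sumo2 varied widely between libraries, at 93.5, 179 and 62.7 against 65.1, 51.5 and 39.1 FPKM with overlapping groups (limma adjusted p = 0.0406), and its call was lost under 7 alternatives, leaving out FGSC replicate 1 or 2 or Dif-FGSC replicate 2 or 3 among them, with adjusted p up to 0.13. Of 8 tested E1 genes 1 rose and 3 fell: the ubiquitin E1 Uba1 rose from 36.3, 36.7 and 37.1 to 45.1, 44.8 and 44.1 FPKM, and Uba3 fell from 3.59, 3.61 and 3.49 to 2.21, 2.63 and 2.29.

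HECT and RBR ligases had more rises than falls. Of 20 tested HECT ligases 16 rose and 1 fell, among them Arel1, an inhibitor of apoptosis, from 6.42, 5.02 and 6.51 FPKM in FGSC to 12.1, 12.6 and 12.3 in Dif-FGSC (2.06 times, limma adjusted p = 4.80e-05), and Huwe1, a very large ligase of Myc and Trp53, from 26.6, 29.4 and 32.8 to 46.7, 45.3 and 45. Of 9 tested RBR ligases 7 rose and 1 fell, with Rnf19b from 16.3, 17.2 and 18.9 to 27.0, 27.5 and 27.5 FPKM and Rnf216 from 2.99, 2.80 and 3.18 to 5.08, 4.82 and 5.02. With the length trend taken out, 7 HECT and 6 RBR ligases were called higher. Cullin ligase cores were even, with 5 of 15 higher and 5 lower. Cand1, which exchanges the adaptors of cullins, rose from 30.1, 31.0 and 29.8 to 39.9, 39.4 and 40.3 FPKM, and the adaptor Eloc fell from 58.1, 56.8 and 57.8 to 46.1, 43.4 and 41.2.

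**Figure D5:**
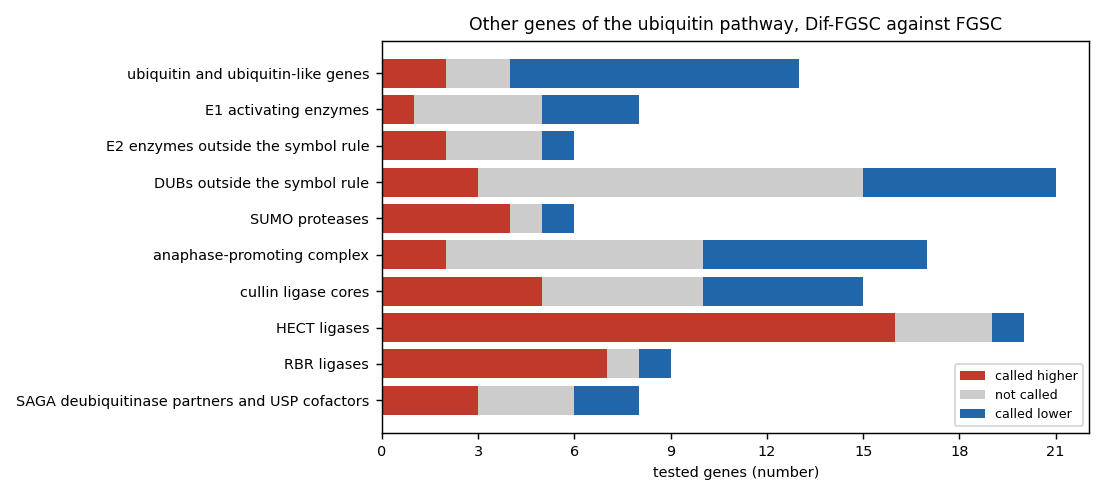
Calls in other genes of the ubiquitin pathway. Bars give the number of tested genes (horizontal axis) called higher, not called or called lower in Dif-FGSC for 10 lists. Rises dominate among HECT ligases, with 16 of 20, and falls among ubiquitin and ubiquitin-like genes, with 9 of 13. Over all genes tested, 36.5% were called higher and 28.6% lower.

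Of the deubiquitinases that the symbol rule leaves out, 21 were tested, of which 3 rose, 6 fell and 12 were not called. The largest falls were those of Mindy1, which trims long chains, from 23.9, 23.2 and 24.5 FPKM in FGSC to 12.5, 13 and 12.9 in Dif-FGSC (0.536 times, limma adjusted p = 1.53e-06), and Mpnd, a JAMM-domain protein, from 34.8, 34.4 and 33.2 to 19.4, 19.1 and 20.2. Whether these counts differ from those of the members was not tested. Of 6 tested SUMO proteases 4 rose, Senp1 from 9.26, 8.66 and 9.56 to 11.6, 12.2 and 12.8 FPKM and Senp5 from 3.89, 3.63 and 3.89 to 4.83, 5.12 and 4.91 with the largest differences, and Senp6 fell. Among 6 tested conjugating enzymes with other symbols, Ufc1, the enzyme for UFM1, rose from 11.5, 11.6 and 12.1 to 15.6, 15.2 and 15.5 FPKM and Birc6, a giant E2 and ligase that restrains apoptosis, from 14.6, 15.7 and 18 to 20.9, 20.7 and 20.4, the latter not called with the length trend taken out (adjusted p = 0.301, and 0.000196 to 0.301 over all alternatives).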

How the data were processed

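RNA from 3 FGSC and 3 Dif-FGSC libraries was extracted with Trizol and made into stranded poly(A) libraries, per the labels' protocols. The deposited table holds 1 FPKM value per gene and library, made by the authors. The submitters' processing notes name HISAT2 4.8.2, Cufflinks 2.2.1 and build mm9, without roles. For the annotation and the strand setting the sources used here give nothing. Fragments per library were inferred from steps between low values, of which 70.6% to 73.3% fell within 0.1 of a whole number. Intervals from counts were not made.

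The table's 24674 rows hold 2 duplicated symbols. Genes with a mean of at least 1 FPKM were fitted together as log2(FPKM + 1) in limma 3.58.1 (R 4.3.3, empirical Bayes with trend), 3 libraries a group and no covariate, and p-values were adjusted by Benjamini-Hochberg over all 9162 genes. Samples were grouped by column prefix, and the labels give no batch. The script was tested on simulated data. Alternatives were the pseudocount, filter, scaling, variance trend, each library left out and a replicate block, plus a length correction and multiplication by curated transcript number, both chosen after seeing the data. Lengths, overlaps and promoters come from GENCODE and RefSeq tables of GRCm38, another build, so no coordinate of the deposited genes is used.

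Members and gene lists were chosen with earlier results of these data known. Genes given with single values are the 12 largest called rises and 12 largest called falls among members, the 10 members with the highest mean, all tested members of the role lists, members listed at 0 in some libraries and at 1 FPKM or more in others, and at most 2 called genes per pathway list. Genes named with values outside this rule, such as Hspa8, Cbx1, Tomm6, Gata1, Foxm1, Mki67, Ubb, Nedd8, Nae1, Psmd14, Wdr48 and Usp2, were chosen after their values were seen. Results of a few genes that the rule names are not reported here. Everything was read from the deposited values, and no reads were used.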

Additional observations from a re-analysis of the deposited data

How the results depend on the processing

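Of the 42 rises among members, 24 stayed called under each of 14 alternatives, as did 16 of the 19 falls. The higher filter of a mean of 5 FPKM was set aside here because it tests 61 members. Usp49 and Ube2h among the 24, and Ube2v2 among the 16, passed the limit for testing only through the group where they are high. They lend no support to these counts. The share of calls kept over all genes is not given here. Over 88 named genes, members and pathway genes together, 1215 of 1301 values under an alternative kept their side of the threshold. The sign changed in 3 of 1049 such values of called genes and in 17 of 252 of genes not called, the latter in 10 of 17 genes. Many of the 88 genes were chosen for large differences in these same libraries, and every alternative refits those libraries. The counts of values that kept their side or changed sign therefore lend no support. With the length trend taken out, 19 deubiquitinase symbols were called higher, the median of the members was 0.0294, and Ube2d3 (-0.18), Usp7 (-0.0165) and Usp32 (-0.00211) changed sign on the log2 scale. The median of the members was 0.156 with a pseudocount of 0.1, 0.104 after median-ratio scaling, 0.0839 after quantile normalization and between 0.118 and 0.142 with 1 library left out. Quantile normalization gave 32 rises and 22 falls, and leaving out 1 library 33 to 43 rises and 16 to 18 falls. Median-ratio scaling and quantile normalization shifted the median of all genes by -0.0324 and -0.0512. A replicate block gave 37 rises and 18 falls. Columns of the same number correlated at 0.131, 0.0123 and 0.173 in their deviations, and columns of different numbers at -0.218 to 0.106. These few values cannot settle whether the numbers mark pairs. The labels state no pairing, and the main fit used none. The cause of these shifts was not tested. A value of 0 or one near the floor of 3 fragments limits what can be said of the 25 untested members.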

Other observations

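Ratios within pairs of related enzymes were computed for 5 pairs chosen after their values were seen, so the tests are descriptive, and 3 against 3 libraries cannot give a two-sided exact permutation p below 0.1. Because each gene may be averaged over its transcripts, a ratio is read only against itself in the other group. The ratio of Ube2b to Ube2a, the mouse RAD6 pair, was 0.748, 0.723 and 0.662 in FGSC and 1.36, 1.25 and 1.39 in Dif-FGSC (exact permutation p = 0.1, adjusted 0.125). The ratio of Ube2e2 to Ube2e3 was 0.878, 0.879 and 0.881 in FGSC and 0.548, 0.493 and 0.599 in Dif-FGSC (exact permutation p = 0.1, adjusted 0.125). The groups of both ratios did not overlap. For Ube2v1 to Ube2v2, where the first row is uncertain, the mean ratio was 7.48 ± 1.76 (SD, n = 3) in FGSC and 14.0 ± 0.845 (SD, n = 3) in Dif-FGSC, and for Ube2d1 to Ube2d2a 0.137 ± 0.0125 and 0.172 ± 0.0163, both at an exact permutation p of 0.1. The ratio of Usp12 to Usp46 was 1.07 ± 0.0916 and 1.14 ± 0.0294 (exact permutation p = 0.3), with overlapping groups.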
